A study of Mus musculus with 6 samples.

Results

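Sox4, Stmn1, Dlx1, Dlx2, Cd24a, Islr2, Tbr1 and Reln are genes of young neurons and of the developing forebrain, and they were read here as a measure of brain maturity. They were chosen by name, with earlier results of these data known, and all 8 were among the 770 genes of the panel. RNA from whole brain homogenates of 3 wild-type (WT) samples and 3 samples transgenic for SOD1-G85R, all from C57BL/6 mice and labelled day 10, had been counted by NanoString hybridisation, in which coloured probes are counted on RNA without amplification. SOD1-G85R is a mutant form of superoxide dismutase 1 linked to amyotrophic lateral sclerosis. The labels name no promoter, line or copy number for the transgene, no sex, no health record and no treatment, and they do not say from which event the days were counted. Nor do they state that each replicate came from its own animal, so part of the spread behind every p-value may be technical.

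In the mammalian forebrain, newborn neurons leave the proliferative zones, migrate, extend axons and then switch from genes of growth and migration to genes of synapses. Sox4, a SoxC transcription factor, and Stmn1, the microtubule-destabilising protein stathmin, belong to the early programme. So do the small surface glycoprotein gene Cd24a and Islr2, which encodes an axonal membrane protein with leucine-rich and immunoglobulin repeats. Dlx1 and Dlx2 are homeodomain factors of inhibitory neurons born in the ganglionic eminences. Tbr1 is a T-box factor of glutamatergic neurons of the cortex that have left the cell cycle. Reln encodes reelin, a secreted protein that guides cortical layering and is made by Cajal-Retzius cells early and by inhibitory neurons later.

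The level given for each gene is the deposited signal, called a normalized count below. Implied total counts per sample ran from 468719 to 1022648. SOD1-G85R replicate 2 was unlike the rest. Its log2 correlations with the other 5 samples were 0.828 to 0.841, against 0.961 to 0.986 among those 5, over genes that are not independent of each other. Its 11 measured interferon response genes summed to 33828 normalized counts, against 1196 to 1827 in the other 5 samples. The Y-linked gene Uty was at 684 and 478 in WT replicates 1 and 2 and at 466 in SOD1-G85R replicate 2, and at 11.2 or less in the other 3, so neither group came from a single animal. Results are therefore also given without SOD1-G85R replicate 2 and set against Uty. Sod1 was not analysed here, and genotypes are given as labelled. The tissue label was checked against 35 mature neuron genes, of which 21 were measured and 0 lay at the lowest value in any sample.

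Promoter windows of 3 genes are shown. On the higher side these are Sox4, with the largest fold change, and Islr2, next below Cd24a, which had no window listed. The last is that of Tbr1, the single gene with a lower mean in SOD1-G85R. Each holds the 250 bases before a RefSeq start site in GRCm38.p6, 5′ to 3′ on the gene's strand. Capitals mark matches on either strand to 6 motifs: TAATTA (the homeodomain core), CCAAT (the CCAAT box), GGGCGG (the GC box), TATAAA (the TATA box), CAGCTG (an E-box) and AACAAT (a SOX core). Matches did not overlap each other in these windows. The Sox4 window is chr13:28953700-28953949 on the minus strand. The Islr2 window is chr9:58204320-58204569 on the minus strand, before the outermost of 3 listed start sites. The Tbr1 window is chr2:61804203-61804452 on the plus strand.
Sox4: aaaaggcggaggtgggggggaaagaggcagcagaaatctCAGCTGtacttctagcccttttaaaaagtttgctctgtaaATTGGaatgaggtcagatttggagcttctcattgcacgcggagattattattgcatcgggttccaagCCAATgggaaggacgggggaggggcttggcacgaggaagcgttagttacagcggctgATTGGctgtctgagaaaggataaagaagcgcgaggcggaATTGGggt
Islr2: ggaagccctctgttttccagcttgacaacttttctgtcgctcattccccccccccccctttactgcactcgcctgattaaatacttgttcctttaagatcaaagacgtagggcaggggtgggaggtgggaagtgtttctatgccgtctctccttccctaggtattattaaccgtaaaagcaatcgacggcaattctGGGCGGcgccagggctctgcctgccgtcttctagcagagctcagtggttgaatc
Tbr1: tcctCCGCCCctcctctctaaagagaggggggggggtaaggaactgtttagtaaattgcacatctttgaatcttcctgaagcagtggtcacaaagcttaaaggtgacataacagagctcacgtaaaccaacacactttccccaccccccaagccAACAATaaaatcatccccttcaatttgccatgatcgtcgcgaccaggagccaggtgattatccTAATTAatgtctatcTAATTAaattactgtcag
The Tbr1 window held 2 copies of TAATTA, a motif found in 4.84% of 32851 windows of the same length over all genes in the table. It also held 1 AACAAT, found in 9.42% of windows, and 1 GGGCGG. The Sox4 window held 4 copies of CCAAT, found in 33.8% of windows, and 1 CAGCTG, found in 13% of windows. The Islr2 window held 1 GGGCGG, found in 32.7% of windows. TATAAA, found in 12.4% of windows, was in none of these 3 windows. These matches are a description of the letters. The table matched 6 of the 8 genes, Stmn1 and Cd24a not among them.

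Sox4, Cd24a, Islr2 and Stmn1 averaged higher in SOD1-G85R brain, by 1.15-fold to 1.49-fold, but no gene passed the test over the panel. Sox4, Cd24a and Islr2 had the largest of the 8 fold changes. Groups overlapped for Sox4 and Stmn1, and the fold change of Stmn1, 1.15, was below that of Dlx2, 1.25. Dlx1, Dlx2 and Reln also had overlapping groups, with fold changes of 1.05 to 1.25. Tbr1 averaged lower, at 0.81 of the WT level. Of the 8 genes, 7 had a positive log2 fold change, beside 62.6% of the 712 genes tested. All folds are on the log2(value + 1) scale. In whole-brain RNA, fewer cells of a type and less RNA per cell cannot be told apart.

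**Figure D1:**
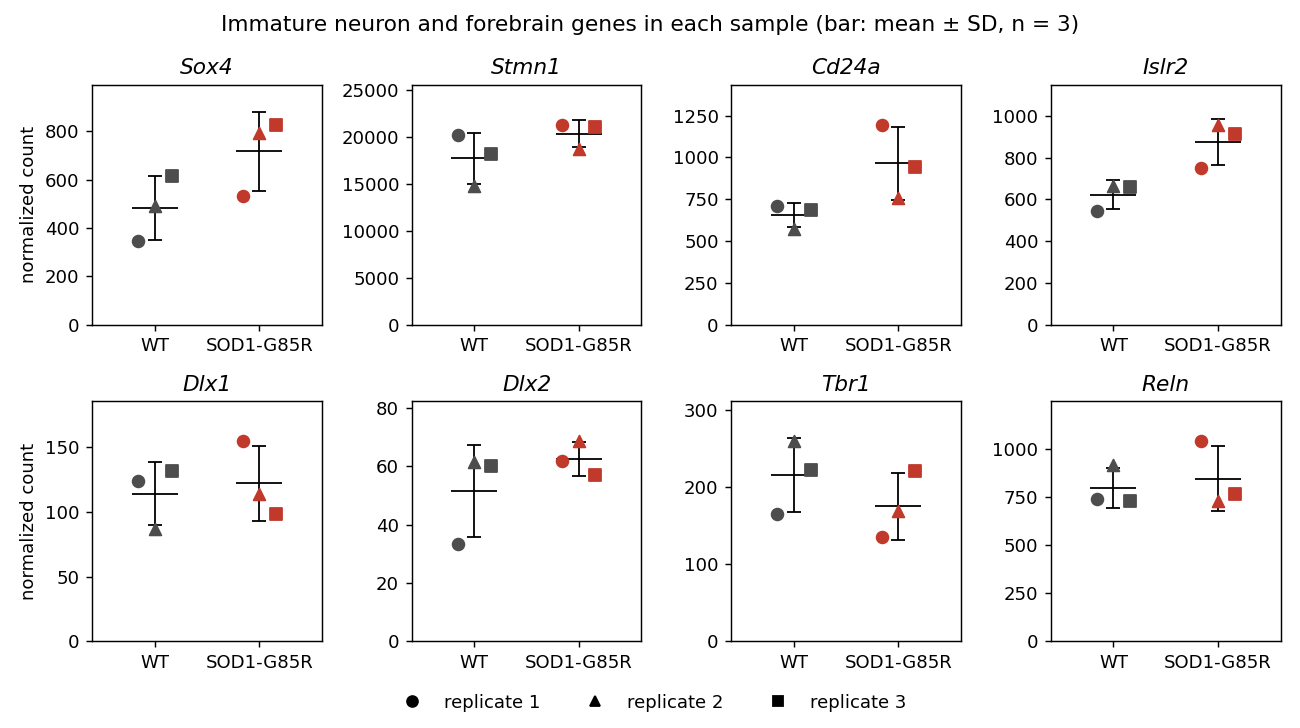
Normalized counts (vertical axes, from 0) of each of the 8 genes in every sample, with WT in grey and SOD1-G85R in red, the replicate number as the symbol, and the mean ± SD of 3 samples as bars. The groups did not overlap for Cd24a and Islr2, and overlapped for the other 6 genes.

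Islr2, whose protein takes part in axon growth and guidance, was at 544, 664 and 661 normalized counts in WT replicates 1, 2 and 3. It was at 751, 957 and 915 in SOD1-G85R replicates 1, 2 and 3. Every SOD1-G85R sample lay above every WT sample. The means were 623 ± 68.2 and 874 ± 109 (SD, n = 3 each), and the log2 fold change was 0.49 (SE 0.20, 95% interval 0.0030 to 0.97). limma gave an unadjusted p of 0.049 and an adjusted p of 0.301 over all genes tested, and the exact permutation test gave p = 0.1, the smallest that 3 against 3 allows. With 1 sample left out the log2 fold change was 0.39 to 0.59, and the unadjusted p was above 0.05 in 5 of the 6 such fits. Among the samples with Uty signal, WT was at 544 and 664 and SOD1-G85R at 957. Among those without it, WT was at 661 and SOD1-G85R at 751 and 915.

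Cd24a, a gene of young neurons that many leukocytes also express, was at 710, 571 and 684 in the WT samples and at 1194, 760 and 940 in the SOD1-G85R samples. Every SOD1-G85R sample was again above every WT sample, with the smallest margin in SOD1-G85R replicate 2. The means were 655 ± 73.9 and 965 ± 218 (SD, n = 3 each). The log2 fold change was 0.54 (SE 0.24, 95% interval -0.032 to 1.11; limma, adjusted p = 0.343), and the exact permutation p was again 0.1. It was 0.70 without SOD1-G85R replicate 2 (limma, unadjusted p = 0.019, adjusted p = 0.167) and 0.37 without SOD1-G85R replicate 1. Among samples with Uty signal, WT was at 710 and 571 against 760 in SOD1-G85R, and among those without it at 684 against 1194 and 940.

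Because Cd24a is also a leukocyte gene, a list of T cell and B cell genes was set beside it. Of 15 listed genes 8 were measured, and 3 of these passed the filter on low values. The summed level of all 8 measured genes was 73.8 to 112 normalized counts in WT, where 4 to 6 of the 8 lay at the lowest value of the sample. In SOD1-G85R replicates 1, 2 and 3 the sum was 157, 528 and 284, with 0 at the lowest value. Both this sum and Cd24a were higher in every SOD1-G85R sample than in every WT sample. Within SOD1-G85R their order was opposite: replicate 1 had the lowest sum and the highest Cd24a, and replicate 2 the highest sum and the lowest Cd24a. The part of lymphocytes in the Cd24a values was not tested. The 9 measured microglia genes summed to 3513 to 5363 in WT and to 3375, 8503 and 4143 in SOD1-G85R.

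Sox4, whose factor acts in newborn neurons and in other young cells, was at 348, 490 and 614 in WT and at 531, 795 and 827 in SOD1-G85R. SOD1-G85R replicate 1 lay between WT replicates 2 and 3, so the groups overlapped, while SOD1-G85R replicates 2 and 3 lay above all WT samples. The 440, 487 and 768 counts behind the WT values gave exact 95% Poisson intervals of 316 to 382, 447 to 535 and 571 to 659 normalized counts, which do not meet. The spread within WT therefore exceeded counting error, the only error these intervals cover. The log2 fold change was 0.58 (SE 0.30, 95% interval -0.15 to 1.30; limma, adjusted p = 0.420), and the exact permutation p was 0.2. When 1 sample was left out the log2 fold change ran from 0.36 without WT replicate 1 to 0.78 without SOD1-G85R replicate 1, where the groups were apart.

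Stmn1 gave the strongest signal of the 8 probes, with 20194, 14787 and 18199 normalized counts in WT and 21276, 18678 and 21035 in SOD1-G85R. WT replicate 1 lay above SOD1-G85R replicate 2, so the groups overlapped, and without that SOD1-G85R sample they did not. The log2 fold change was 0.21 (SE 0.20, 95% interval -0.28 to 0.69; limma, adjusted p = 0.636). The interval allows a fold between 0.824 and 1.62. Without WT replicate 2 the log2 fold change was 0.08. With each sample centred on its median the log2 fold change was 0.000047, and quantile normalization gave 0.52. With SOD1-G85R replicate 2 also left out, quantile normalization gave 0.83 (limma, unadjusted p = 0.0035, adjusted p = 0.109). Of 20 alternative settings, that was the only 1 in which Stmn1 passed without adjustment.

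Dlx1 and Dlx2 lie next to each other on chromosome 2, with no other protein-coding gene between them in the RefSeq annotation, but their values did not follow each other. Dlx1 was at 124, 86.5 and 132 in WT and at 154, 114 and 98.0 in SOD1-G85R, with the groups interleaved. Dlx2 was at 33.2, 61.4 and 59.9 in WT and at 61.8, 68.5 and 56.8 in SOD1-G85R. WT replicate 1 was the low sample for Dlx2, and the other 5 values lay between 56.8 and 68.5. The 42 counts behind that low value gave an exact 95% Poisson interval of 23.9 to 44.9, which does not reach the other values. It does overlap the interval of SOD1-G85R replicate 3, which was 40.6 to 77.4 from 40 counts. For Dlx1, WT replicate 1 was the second highest of its group.

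The ratio of the Dlx1 probe to the Dlx2 probe, which a change in a sample's scaling leaves nearly as it is, was 3.74, 1.41 and 2.20 in the WT samples. The SOD1-G85R samples gave 2.50, 1.66 and 1.73. Probes differ in efficiency, so only its change between samples can be read, and the SOD1-G85R ratios fell inside the WT range. The log2 fold change was 0.09 for Dlx1 (SE 0.27, 95% interval -0.56 to 0.75; limma, adjusted p = 0.874). It was 0.32 for Dlx2 (SE 0.29, 95% interval -0.38 to 1.01; limma, adjusted p = 0.617), and 0.04 without WT replicate 1. The Dlx1 value changed sign to -0.09 without WT replicate 2 and to -0.09 without SOD1-G85R replicate 1. After quantile normalization it was -0.40 for Dlx1 and -0.41 for Dlx2.

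Tbr1 was at 165, 259 and 223 normalized counts in WT and at 135, 169 and 222 in SOD1-G85R. The lowest value was in SOD1-G85R replicate 1 and the highest in WT replicate 2, and SOD1-G85R replicate 3 differed from WT replicate 3 by less than its own counting interval of 188 to 259. The means were 216 ± 47.5 and 175 ± 43.5 (SD, n = 3 each), and the log2 fold change was -0.30 (SE 0.28, 95% interval -0.98 to 0.37; limma, adjusted p = 0.619). It was -0.13 without SOD1-G85R replicate 1, -0.16 without WT replicate 2, -0.48 without WT replicate 1 and -0.49 without SOD1-G85R replicate 3.

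Tbr1 was also set against Sox4, Islr2, Cd24a and Reln within each sample, in pairs chosen after the values had been seen and given with no test. Relative to the WT mean, the log2 ratio of Sox4 to Tbr1 was 0.82, 1.08 and 0.75 in SOD1-G85R replicates 1, 2 and 3 and between -0.23 and 0.31 in WT. For Islr2 to Tbr1 it was 0.93, 0.96 and 0.50, against -0.19 to 0.17 in WT. These 2 ratios did not overlap between the groups. The ratio of Cd24a to Tbr1, at 1.52, 0.55 and 0.47 against -0.48 to 0.48 in WT, overlapped. So did that of Reln to Tbr1, at 1.04, 0.22 and -0.11 against -0.19 to 0.26 in WT. Stmn1 was not paired with Tbr1, and the share of such ratios apart over the panel was not computed.

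Reln was at 740, 916 and 729 in WT and at 1037, 730 and 764 in SOD1-G85R. One sample of each group was high, WT replicate 2 and SOD1-G85R replicate 1, and the other 4 lay between 729 and 764. The log2 fold change was 0.08 (SE 0.22, 95% interval -0.47 to 0.62; limma, adjusted p = 0.874), and it was -0.08 without SOD1-G85R replicate 1. Reelin acts through receptors that lead to the Src-family kinase Fyn, to phosphoinositide 3-kinase and to Akt. Of 17 listed receptors and partners 5 were measured (Fyn, Pik3r1, Akt1, Akt2 and Mapt), 0 were called, 2 had a positive fold change and 3 a negative one. Fyn was at 3550, 3864 and 3242 in WT and at 2692, 3214 and 2734 in SOD1-G85R, so that every SOD1-G85R sample was below every WT sample (log2 fold change -0.30, SE 0.19; limma, adjusted p = 0.470). Akt2 was also apart on the lower side (log2 fold change -0.31), and Mapt was apart on the higher side (0.14). Of the 5, 2 were thus apart on the lower side, beside 9.97% of all genes, and 1 on the higher side, beside 17.0%.

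Of the 712 genes tested by limma, 0 passed at an adjusted p of 0.05 (0%) and 116 at an unadjusted p of 0.05 (16.3%). Of the 8 genes, 1, Islr2, was among the 116. Without SOD1-G85R replicate 2 it called 10 genes (1.40%), none of them among the 8. Groups were apart on the higher side for 2 of the 8 genes, beside 17.0% of all genes tested, and on the lower side for 0 of 8, beside 9.97%. The 2 genes make a share near that background. All 8 exceeded 20 in every sample, so the filter on low values did not select them for a difference. Without SOD1-G85R replicate 2, Cd24a, Islr2 and Stmn1 were apart on the higher side, beside 19.7% of all genes. Without WT replicate 1, 4 of the 8 were apart, Tbr1 among them on the lower side, beside 33.3% of all genes in either direction.

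The median log2 fold change was 0.26 over the 8 genes and 0.15 over all genes tested. Without SOD1-G85R replicate 2 the same medians were 0.26 and 0.01, and 7 of the 8 genes stayed positive, beside 50.7% of all genes. With each sample centred on its median the medians were 0.06 and -0.06, and 0 of the 8 genes had groups apart, beside 25.6% of all genes in either direction. In that centring SOD1-G85R replicate 2 moved most, since its panel median lay 0.65 above the mean of the 6 samples on the log2 scale, while its housekeeping mean lay 0.05 above.

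**Figure D2:**
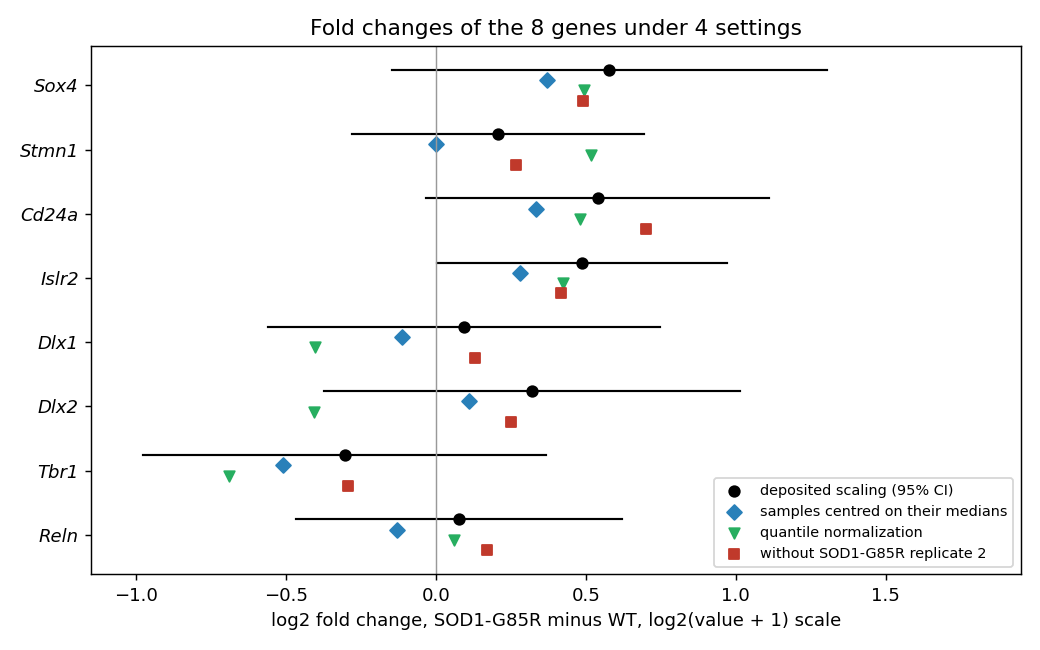
Log2 fold change, SOD1-G85R minus WT (horizontal axis, log2(value + 1) scale), of each of the 8 genes in the deposited scaling with its 95% interval (black), with each sample centred on its median (blue), with quantile normalization (green) and without SOD1-G85R replicate 2 (red). Sox4, Cd24a and Islr2 stayed above 0 and Tbr1 below 0 in all 4, while Dlx1 and Dlx2 changed sign after quantile normalization and Dlx1 and Reln with centred samples.

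As a reading of maturity, the 8 genes were set beside genes of mature neurons. Of 21 measured mature neuron genes, 19 had a negative fold change and 2 a positive one, 0 were called and 10 had every SOD1-G85R sample below every WT sample, beside 9.97% of all genes. Slc17a7, the vesicular glutamate transporter of cortical excitatory neurons, was at 6032, 6656 and 5378 in WT and at 3102, 2753 and 4398 in SOD1-G85R. Grin2a, an NMDA receptor subunit that increases as synapses mature, was at 373, 397 and 326 in WT and at 200.3, 195 and 227 in SOD1-G85R. Both have earlier results of these data behind their choice and were among the mature neuron genes of smallest limma p. Their log2 fold changes, -0.84 and -0.81, were well below the list median of -0.45, so they are not typical of the list. Dlg1, with the smallest p of the list, was at -0.89. Of the 8, 7 had a higher log2 fold change than any of the 21 mature neuron genes, whose highest was 0.06 for Slc17a6, close below Reln at 0.08. At least 413 of the 712 genes tested also exceeded Slc17a6, so lying above the mature neuron list was common over the panel. Tbr1 lay within the range of the mature neuron genes. The count of 7 was 4 after quantile normalization, where Dlx1 and Dlx2 lay near the mature neuron median of -0.42. It was 4 with sample weights, 5 with a term for Uty and 2 to 7 when 1 sample was left out, the lowest without SOD1-G85R replicate 1.

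**Figure D3:**
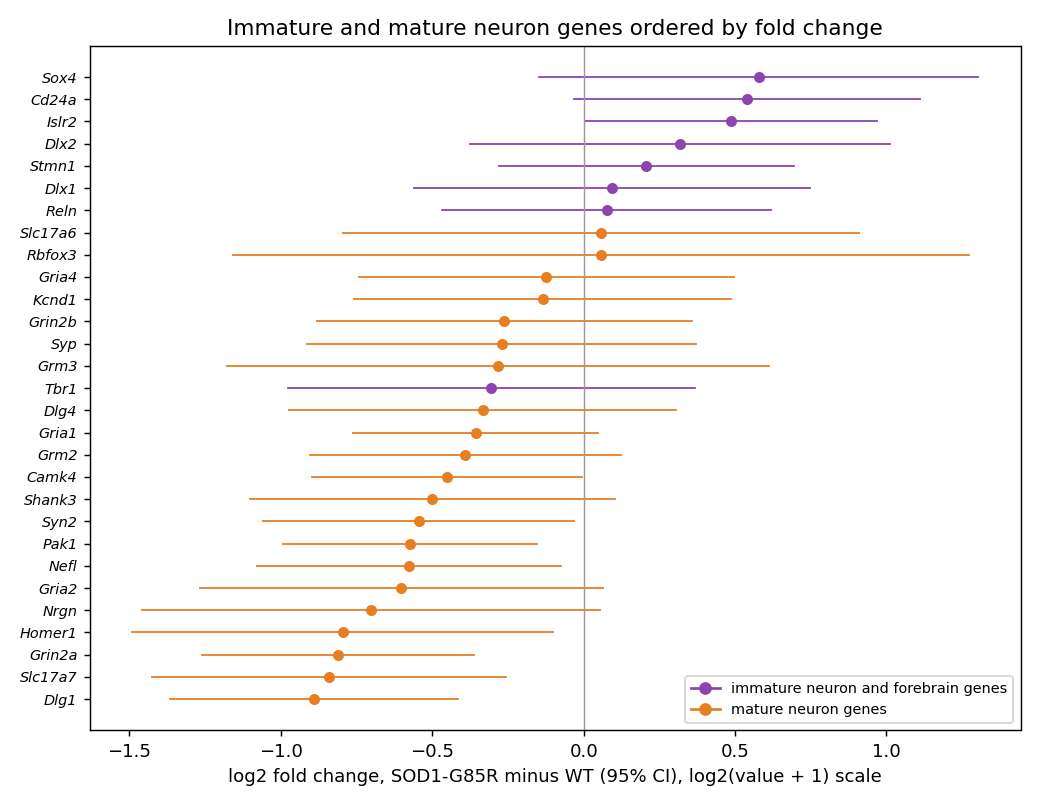
Log2 fold change, SOD1-G85R minus WT, with 95% interval (horizontal axis, log2(value + 1) scale) of the 8 immature neuron and forebrain genes (purple) and 21 mature neuron genes (orange), ordered by size. In the deposited scaling shown, the purple points hold the top 7 places, with Reln close to Slc17a6, and Tbr1, at -0.30, stands among the mature neuron genes.

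Within each sample, the median over the 8 genes minus the median over the mature neuron genes, each as a difference from the WT mean, was -0.15, 0.08 and 0.09 in WT replicates 1, 2 and 3. It was 0.79, 0.80 and 0.63 in SOD1-G85R replicates 1, 2 and 3. All SOD1-G85R samples lay above all WT samples. This difference is the same under any factor applied to a whole sample. In the deposited scaling the mature neuron median supplied the larger part, at -0.49, -0.64 and -0.41 in the SOD1-G85R samples, against 0.29, 0.15 and 0.22 for the 8 genes. This split, unlike the difference, depends on the scaling. With each sample centred on its median, the mature neuron median was -0.28, -1.39 and -0.49 in the SOD1-G85R samples. The median over the 8 genes was then 0.50, -0.60 and 0.14. Between groups, the median log2 fold change of the 8 genes exceeded that of the mature neuron genes by 0.71, by 0.68 without SOD1-G85R replicate 2 and by 0.66 after quantile normalization. Over all genes tested, the median in the deposited scaling was -0.09, 0.32 and 0.10 in SOD1-G85R replicates 1, 2 and 3. It too lay above the mature neuron median in each of these samples. The median log2 fold change was 0.15 over all genes tested and -0.45 over mature neuron genes, so such a gap was not particular to the 8 genes. No p is given for the difference of medians, as the genes were chosen with results known.

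**Figure D4:**
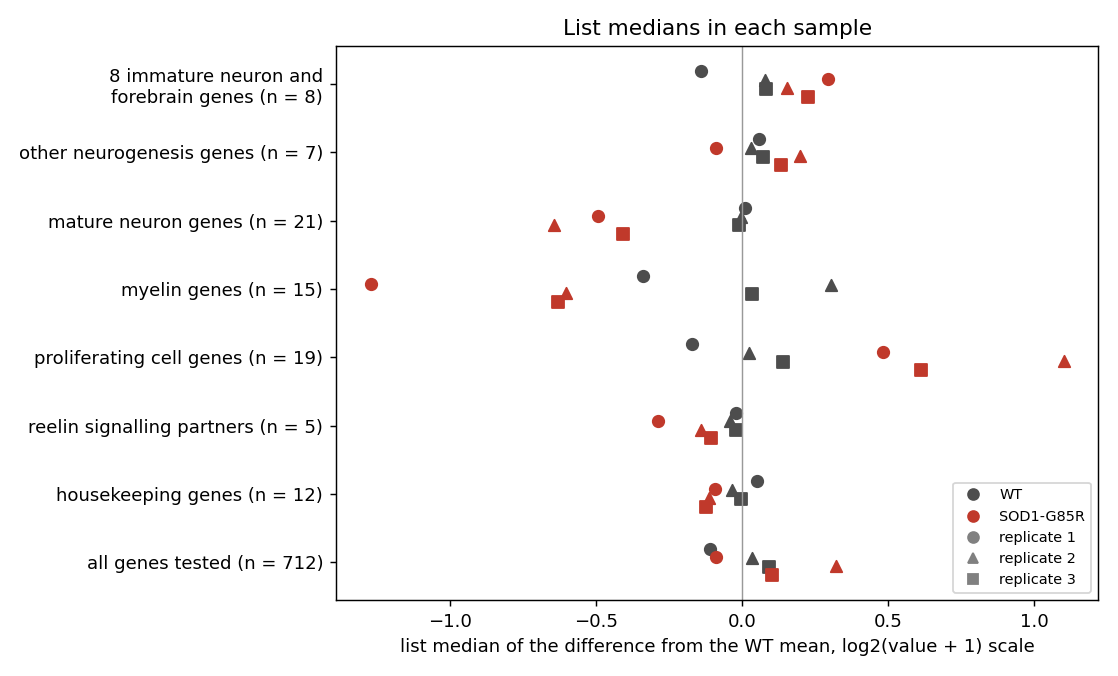
Median over each gene list of the difference from the WT mean (horizontal axis, log2(value + 1) scale) in every sample, with WT in grey, SOD1-G85R in red and the replicate number as the symbol. For the 8 immature neuron and forebrain genes the SOD1-G85R samples lie at 0.15 to 0.29, and for mature neuron genes at -0.64 to -0.41.

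Other genes of neurogenesis did not all go one way. Of 56 listed genes 7 were measured, 4 with a positive and 3 with a negative fold change, 0 were called, and their median was 0.14. Groups were apart on the higher side for 2, beside 17.0% of all genes, and on the lower side for 1, beside 9.97%. Eomes, a T-box factor of cortical intermediate progenitors that cytotoxic lymphocytes also express, was at 15.8, 96.5 and 44.0 in WT and at 162, 104 and 142 in SOD1-G85R. Its groups were apart, and the WT values spread over a 6-fold range (log2 fold change 1.69, SE 0.63; limma, adjusted p = 0.262). Tubb3, the neuron-specific tubulin of young and mature neurons, was at 8672, 8391 and 7628 in WT and at 8818, 9431 and 9004 in SOD1-G85R, also apart on the higher side (log2 fold change 0.14, SE 0.17; limma, adjusted p = 0.699). Cntnap2, a cell adhesion gene of axons, was apart on the lower side, at 983, 838 and 830 in WT against 782, 789 and 665 (log2 fold change -0.25, SE 0.19; limma, adjusted p = 0.560). Vim, the intermediate filament gene vimentin of progenitors and glia, overlapped, at 394, 902 and 604 in WT against 483, 4820 and 1017, with its highest value in SOD1-G85R replicate 2.

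Summed markers of dividing cells and of myelin did not overlap between the groups. The 19 measured genes of proliferating cells summed to 2135 to 2465 normalized counts in WT and to 3736, 4633 and 4055 in SOD1-G85R, and all 19 had a positive fold change, beside 62.6% of all genes. Stmn1 and Sox4 are also expressed in dividing cells. The 15 measured myelin genes summed to 57172 to 77785 in WT and to 29733, 41733 and 39247 in SOD1-G85R, and 15 of 15 had a negative fold change. The 6 measured astrocyte genes summed to 13273 to 20993 in WT and to 15468 to 16197 in SOD1-G85R, and 3 of 6 had a positive fold change. The part of these cell types in the values of the 8 genes was not tested.

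For each of the 8 genes, the panel gene most alike in pattern was the one with the smallest root mean square difference between log2 profiles over the 6 samples, each set to its own mean. For Islr2 it was Ezh2, a histone methyltransferase gene, at a difference of 0.07, and for Tbr1 it was Syp, the synaptic vesicle gene synaptophysin, also at 0.07. Syp was at 5623, 8484 and 6663 in WT and at 4385, 5927 and 6966 in SOD1-G85R, with WT replicate 2 highest and SOD1-G85R replicate 1 lowest, as for Tbr1. Sox4 was most alike to Icam2 (0.10), Stmn1 to Sin3a (0.09), Dlx1 to Tada2b (0.11), Cd24a to Nqo1 (0.14), Reln to Kdm1b (0.15) and Dlx2 to Fancd2 (0.17). The median difference to all other tested genes was 0.41 to 0.55 for these 8. With 6 samples and over 700 candidate genes, close profiles are a description only.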

How the data were processed

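RNA from 3 WT and 3 SOD1-G85R whole-brain samples was counted with a NanoString panel of 770 genes, and groups were taken from the sample titles. The deposited signal is 1 scaled value per gene and sample. Which software made it, which genes set the scale and how background was treated: not given in the sources used here. In every sample 100% of the deposited values above the lowest were whole multiples of 1 step, within 0.1 count, so a value divided by its step gave an implied count. The lowest value, shared by 10 to 59 genes, was read as a floor, and tests for raw counts were not used. The smallest chi-square per degree of freedom between 2 samples was 23.1, so no 2 samples differed by counting error alone. That value cannot show whether 2 samples came from the same animal.

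Values were taken as log2(value + 1). The test took the 712 genes above 20 in at least 3 samples, and 58 were not tested. It was limma 3.58.1 under R 4.3.3 (two-sided lmFit and eBayes on genotype alone). P-values were adjusted by Benjamini-Hochberg over the 712 genes, at a threshold of 0.05. Exact permutation tests were two-sided. Of the symbols, 763 of 770 and all 8 studied genes were current in RefSeq GRCm38.p6, the source of the promoter windows. Figures used matplotlib 3.10.9.

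The 8 genes and all lists were chosen with earlier results of these data known. Besides the 8 genes, named genes were the most alike gene of each and up to 3 genes of smallest p per list. Tubb3, Mapt, Akt1, Syp and Slc17a6, outside that choice or named by another part of it, were singled out after their values were seen, and so was Uty, which served as a covariate. The alternatives were other scalings, filters, pseudocounts, floors and variance models, a term for Uty, the replicate number as a block and leaving out each sample.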

Additional observations from a re-analysis of the deposited data

How the results depend on the processing

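No alternative called any of the 8 genes at an adjusted p of 0.05, and 1, Islr2, passed at an unadjusted p of 0.05 in the deposited scaling with all samples. The number that passed unadjusted was 0 to 4 over the 20 alternatives, and Islr2 passed in 11 of them. The most, 4, came without SOD1-G85R replicate 2 after quantile normalization, where 103 of the 712 genes tested passed unadjusted. Over the panel, 116 genes passed unadjusted in the deposited scaling with all samples. After adjustment 52 were called with sample weights, whose estimation stopped short of convergence, 0 to 10 when 1 sample was left out, and 80 and 11 without SOD1-G85R replicate 2 when samples were also centred on their medians or quantile normalized. The number of the 8 genes with groups apart was 0 with centred samples, beside 25.6% of all genes in either direction. It was 2 to 4 when 1 sample was left out, and 4 without SOD1-G85R replicate 2 after quantile normalization. The share over all genes was not computed for that last setting or for every fit with 1 sample left out. The median log2 fold change over the 8 genes was 0.056 with centred samples, 0.24 to 0.34 when 1 sample was left out, and 0.47 without SOD1-G85R replicate 2 after quantile normalization. Their median minus that of mature neuron genes was 0.58 with sample weights and 0.66 to 0.84 when 1 sample was left out, the highest without SOD1-G85R replicate 3. Dlx1 reversed to -0.11 with centred samples, -0.40 after quantile normalization, -0.17 with sample weights, -0.093 without WT replicate 2 and -0.088 without SOD1-G85R replicate 1, and was 0.24 at most when 1 sample was left out. Dlx2 reversed to -0.41 after quantile normalization, and to -0.13 when SOD1-G85R replicate 2 was also left out. Reln reversed to -0.13 with centred samples and -0.081 without SOD1-G85R replicate 1, was 0.18 at most when 1 sample was left out, and was 0.24 and 0.37 without SOD1-G85R replicate 2 with centred samples and after quantile normalization. The cause was not tested. Sox4, Cd24a, Islr2 and Tbr1 kept their direction in all 20 alternatives, and Stmn1 did so except for a value of 0.000047 with centred samples.

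Same-numbered samples had correlated deviations of 0.23, 0.09 and 0.10, and WT replicate 2 correlated best with SOD1-G85R replicate 3, so the numbers were not taken as pairs. With the replicate number as a block, 0 genes were called. In that fit 3 of the 8, Sox4, Cd24a and Islr2, passed at an unadjusted p of 0.05, beside 162 of the 712 genes tested. The smallest adjusted p among the 8 was 0.154 (limma). The precision is limited by 3 samples per group: the 95% intervals of the 8 log2 fold changes span 0.97 to 1.45. Counting error is largest for Dlx2, with 40 to 86 counts per sample.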
